A study of Drosophila melanogaster with 3 samples.

Results

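Binding of NfI was examined at 10 Drosophila genes of neuroblast fate and asymmetric division, namely *numb*, *pros*, *mira*, *insc*, *brat*, *dpn*, *ase*, *cas*, *grh* and *hb*. These genes were listed by name rather than by a threshold on the measured values, with earlier results of these data known, from 13945 protein-coding genes on the 6 main chromosome arms. NfI belongs to the nuclear factor I transcription factors, which bind DNA and are conserved in vertebrates. Chromatin immunoprecipitation sequencing (ChIP-seq) had been done on whole embryos of both sexes, collected at 12 to 24 h, from a stable transgenic line that expresses NfI with green fluorescent protein at its C terminus. The 3 libraries are biological replicates 2, 3 and 4 of a single group, so the comparisons are between replicates and between these genes and all other genes. A description label calls the samples input controls, while the assay and antibody labels name NfI ChIP-seq, and they were treated here as immunoprecipitates. Neuroblasts are a minority of the cells of an embryo, so a summit cannot be assigned to them, and peak lists give no RNA by which marker genes could check the tissue.

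Neuroblasts are the stem cells of the fly nervous system. They divide unequally: a protein complex at the apical cortex, joined to the spindle by Inscuteable, directs the fate determinants Numb, Prospero and Brat to the basal side, where the smaller daughter inherits them and stops renewing itself. The bHLH factors Deadpan and Asense mark neuroblasts, and a sequence of temporal factors, which includes Hunchback, Castor and Grainyhead, sets the kind of progeny made as the embryo ages.

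The optimal list holds the peaks that passed the depositors' reproducibility threshold, and not all of them were found in every replicate. It contained 5806 summits. Of these, 25 lay in the gene bodies of the 10 genes plus 10 kb on each side. Summits are named here by gene and by their order along the arm. The windows at 4 summits are printed because the values below turn on them: numb-2 was the strongest of the 25, brat-10 the strongest at *brat*, brat-4 lay at the first *brat* transcription start site (TSS), and pros-1 was absent from 1 replicate. Each reaches 100 bases to both sides of the summit, and capitals mark matches on either strand to any of the motifs searched. These are GCCAA in numb-2, TTGGCA and CTCTC in brat-10, and TGCCAA and TATCGATA in brat-4, while pros-1 held none.
numb-2 (chr2L:9449540-9449740, dm6, plus strand): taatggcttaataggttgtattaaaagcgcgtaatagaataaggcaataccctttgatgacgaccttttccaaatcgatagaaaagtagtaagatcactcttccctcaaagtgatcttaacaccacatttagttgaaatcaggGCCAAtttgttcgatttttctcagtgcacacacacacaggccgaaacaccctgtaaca
brat-10 (chr2L:19165065-19165265, dm6, plus strand): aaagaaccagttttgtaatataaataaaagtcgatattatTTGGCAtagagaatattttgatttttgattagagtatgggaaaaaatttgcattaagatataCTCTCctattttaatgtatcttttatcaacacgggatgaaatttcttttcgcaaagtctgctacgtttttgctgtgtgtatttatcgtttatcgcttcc
brat-4 (chr2L:19133627-19133827, dm6, plus strand): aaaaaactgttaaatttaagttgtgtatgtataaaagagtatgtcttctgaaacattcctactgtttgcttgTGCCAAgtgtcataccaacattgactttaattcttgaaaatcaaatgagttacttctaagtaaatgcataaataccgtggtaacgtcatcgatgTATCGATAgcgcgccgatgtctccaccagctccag
pros-1 (chr3R:11338384-11338584, dm6, plus strand): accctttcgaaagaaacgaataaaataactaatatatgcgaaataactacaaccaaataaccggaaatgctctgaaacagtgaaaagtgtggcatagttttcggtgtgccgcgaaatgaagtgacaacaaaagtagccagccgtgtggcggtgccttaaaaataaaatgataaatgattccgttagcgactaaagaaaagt

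TTGGC, which reads GCCAA on the other strand, is one arm of the site that nuclear factor I proteins bind. It was found in 10 of the 25 windows (40%), against 35.6% of all 5806 optimal windows. The longer TTGGCA, which contains it, was in 6 windows (24%), against 13.4% of all. The 6 include brat-2, brat-4, brat-6 and brat-10, all of the *brat* window. No window held the full palindrome of TTGGC and GCCAA separated by 5 bases, which was in 0.0689% of all. GAGAG, the core of the GAGA factor element, was in 11 windows (44%), against 22.3% of all, and pros-2 held a run of 10 overlapping copies. TAATTA, a core that many homeodomain proteins bind, was in 4 windows (16%), against 16.4% of all. CAGCTG, an E-box, was in 3 windows (12%), against 10.7% of all. TATCGATA, the DREF and BEAF-32 site, was in 1 window, that of brat-4, which is 4%, against 4.63% of all. The E-box CAGGTG (5.55% of all), the core promoter Motif 1 GGTCACACT (2.34%), the Zelda site CAGGTAG (0.827%) and the Grainyhead site ACCGGTT (0.654%) were in no window of the 10 genes. The median GC content was 33.3% over the 25 windows, against 36.3% over all optimal windows. These shares are descriptions with no test.

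Of the 10 genes, 7 had an optimal summit in the window, against 69.3% of all protein-coding genes. A summit within 500 bp of one of the gene's own TSSs was present at 2, *numb* and *brat*, against 26.1% of all. Both counts are near these backgrounds. The windows of *mira*, *ase* and *hb* held no optimal summit. The 10 windows spanned 428 kb and held 58.4 summits per Mb, against 43.4 per Mb over the arms. Length alone would give 18.6 summits. Without *brat*, 15 summits were observed and 15.7 expected. The 13 summits within 500 bp of any TSS made up 52% of the 25, against 53.6% of all optimal summits, but only 3 of the 13 were at a TSS of the listed gene and 10 were at a neighbour's. Of the 12 distal summits, 9 were intronic, 1 was intergenic, 1 was in an annotated 3' UTR and 1 was in a non-coding exon.

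**Figure D1:**
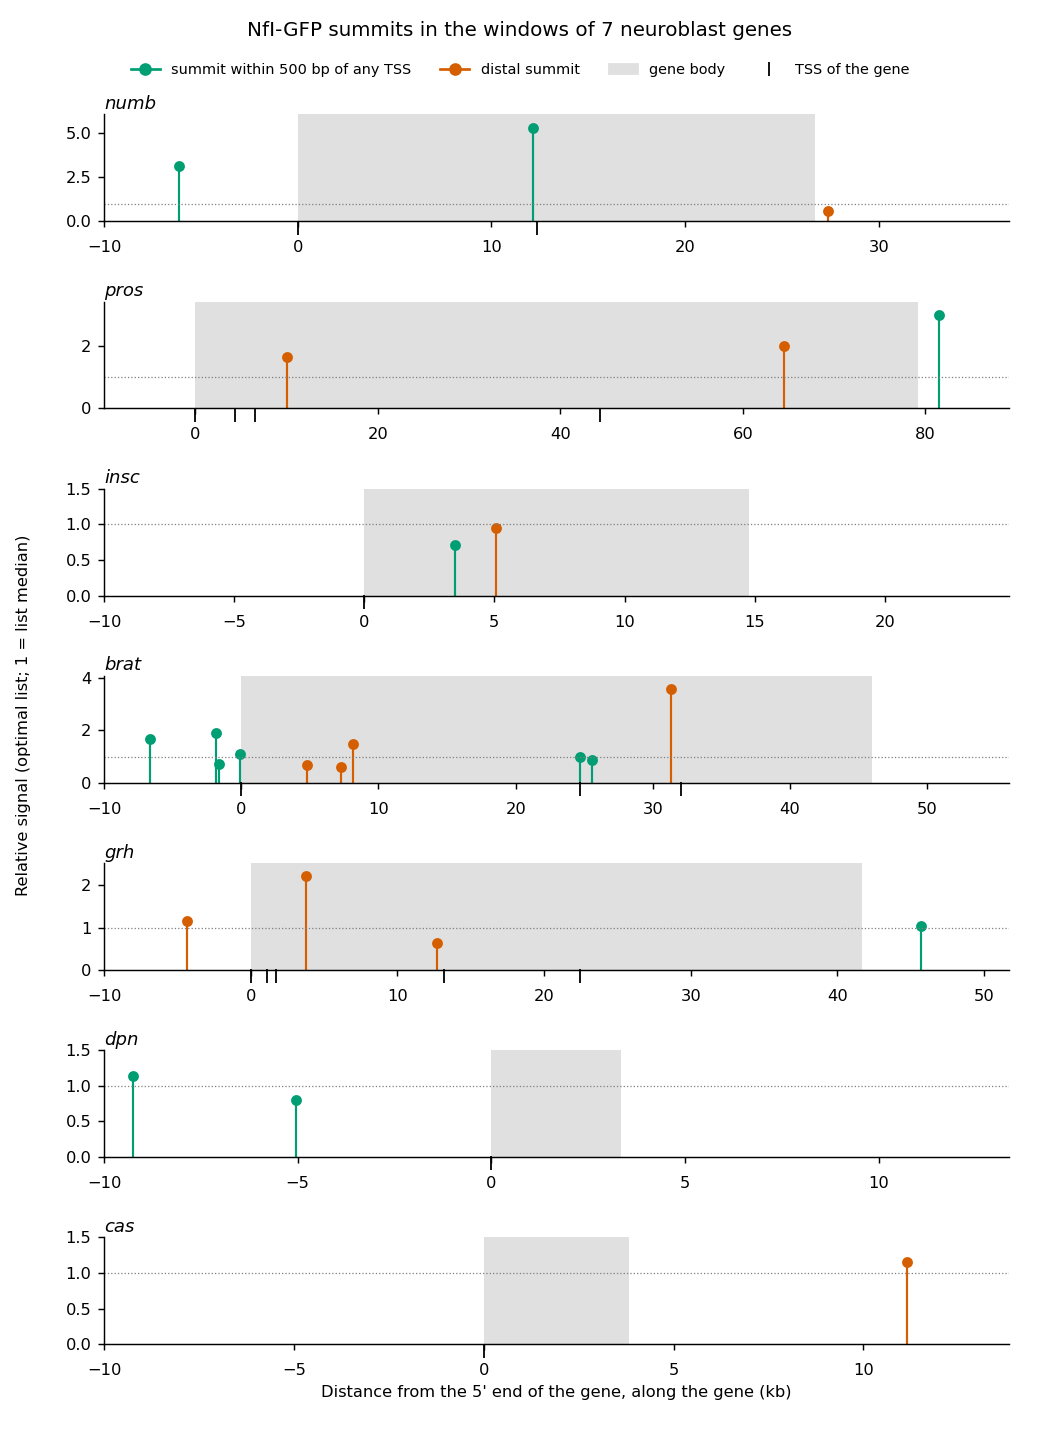
Optimal NfI-GFP summits in the windows of the 7 genes that had any, by distance along the gene from its 5' end (kb) and by signal relative to the optimal list's median (vertical axis, scaled separately for each gene). Gray marks the gene body and ticks under the axis its TSSs. The highest summit is at the second TSS of *numb*, and *brat* has the most, 10.

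The deposited signal of a peak has no stated scale, so each replicate's signal was divided by the median of its 5806 strongest peaks. A relative signal of 1 is therefore the median strong peak. A peak of a replicate was matched to an optimal peak by an overlap of at least 1 bp. The replicates differed in how many peaks had a q-value of 0.01 or lower, with 13037, 8464 and 5138 in replicates 2, 3 and 4. Read depth is unknown from these lists. Their 5806 strongest peaks placed 22, 34 and 25 summits in the 10 windows. All 3 replicates had a matching peak among their 5806 strongest for 18 of the 25 summits (72%), against 55.3% of all optimal summits. The 18 include brat-3, whose matching peak in every replicate was that of brat-2. The 22 summits matched in replicates 2 and 3 ranked alike with Spearman's rho 0.732, those in replicates 2 and 4 with 0.739, and the 25 in replicates 3 and 4 with 0.669. The points share peaks and libraries, and these are descriptions.

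**Figure D2:**
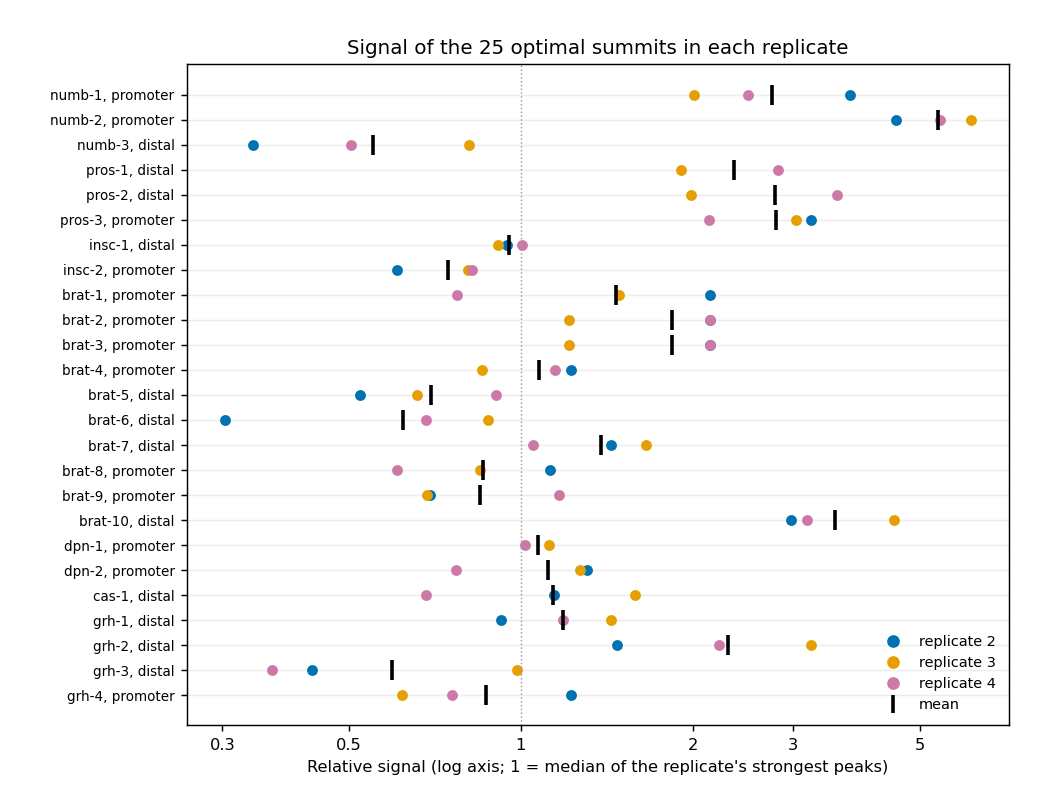
Relative signal (log axis) of the 25 optimal summits in replicates 2, 3 and 4, with a bar at the mean. A missing point is a replicate with no overlapping peak, except at brat-2 and brat-3, where the point of replicate 4 covers that of replicate 2 (both 2.15). The points of brat-3 are those of the peak at brat-2. Values of numb-2 lie between 4.55 and 6.16, above those of every other summit in each replicate.

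Numb blocks Notch signalling in the daughter cell that inherits it. *numb* (FBgn0002973, 2L:9437469-9464184, plus strand, 2 TSSs) held the strongest summit of the set, numb-2 (2L:9449407-9449791), in an intron 190 bp upstream of the gene's internal TSS. In the order of replicates 2, 3 and 4, which later triplets of values keep, the relative signal was 4.55, 6.16 and 5.41 (5.37 ± 0.806, SD, n = 3). All 3 replicates placed it among their 207 strongest peaks. Among the 3643 genes with an optimal summit at an own TSS, 153 (4.20%) had a stronger one. A second summit, numb-1 (2L:9431206-9431485), was 60 bp from the TSS of *scat* and also near that of *FucTB*, with relative signal 3.77, 2.01 and 2.50 (2.76 ± 0.908, SD, n = 3). The third, intergenic numb-3 beyond the 3' end (2L:9464645-9465024), had 0.340, 0.810 and 0.505 and was among the strongest peaks of replicate 3 only. The *numb* window held 3 summits where its length gives 2.03, a 1.48-fold excess that did not pass the per-gene test of summit density (adjusted exact p = 0.963).

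Brat is a translational repressor that ends self-renewal in the daughter cell. *brat* (FBgn0010300, 2L:19133816-19179758, plus strand, 3 TSSs) had 10 optimal summits in a 65.9 kb window, against 2.86 expected from its length. The excess was 3.50-fold, with a raw p of 7.70e-04 and an adjusted p of 0.0325 in a 2-sided exact binomial test per gene, corrected by Benjamini-Hochberg over all 13945 genes. It was the only one of the 10 genes called, and 374 of all genes (2.68%) were. The replicates' strongest peaks gave 10, 12 and 9 summits (10.3 ± 1.53, SD, n = 3), with adjusted exact p of 0.0202, 0.0112 and 0.0872. With gene body only the window held 6 against 1.99 expected and the adjusted p was 1, and with 5 kb flanks it was 0.0683. Of all genes, 44 (0.316%) had 10 or more summits in the window. The test treats summits as independent and covers only their counting. Among the 10, brat-2 (2L:19131891-19132102) and brat-3 (2L:19132007-19132386) were overlapping optimal peaks, and each was counted. The test was not run with this pair counted as 1.

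The 10 *brat* summits were 6 near a TSS and 4 distal, but only brat-4 and brat-8 were at a TSS of *brat*. The window's first 4 summits, upstream of or at the 5' end, include 3 at neighbours: brat-1 at the divergent *l(2)37Cd* and *l(2)37Cb*, and brat-2 and brat-3 at *AsnRS*, which encodes an asparaginyl-tRNA synthetase, and *DCTN6-p27*. The strongest replicate peak overlapping brat-3 was that of brat-2 in every replicate, so the values matched by overlap are brat-2's. A separate peak at brat-3 had 0.846 in replicate 2 and 0.623 in replicate 3, and replicate 4 had none among its strongest. The first TSS carried brat-4 (2L:19133537-19133916), 89 bp upstream of *brat* and also near the TSS of *Polr1D*, with relative signal 1.22, 0.856 and 1.15 (1.08 ± 0.195, SD, n = 3). On the second *brat* TSS lay brat-8, at 1.12, 0.849 and 0.606 (0.860 ± 0.259, n = 3). By its stronger promoter summit *brat* was ordinary: 2000 of the 3643 genes with one (54.9%) had a stronger. The strongest, brat-10 (2L:19165001-19165307), was intronic and 702 bp upstream of the third *brat* TSS, just outside the promoter limit, with 2.97, 4.50 and 3.17 (3.55 ± 0.833, n = 3). It was lower than numb-2 in 3 of 3 replicates. The intronic brat-5, brat-6 and brat-7, 4773 to 8151 bp into the gene, averaged 0.695, 0.621 and 1.38. All of them were nearer to the TSS of *Polr1D*, 3356 to 6734 bp away, than to one of *brat*. At 0.849, brat-9 was at the TSS of a non-coding gene inside *brat*. Distal summits alone numbered 4 against 1.24 expected (3.23-fold), which did not pass the same test (adjusted exact p = 0.780). No listed gene passed it, against 0.581% of all genes.

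**Figure D3:**
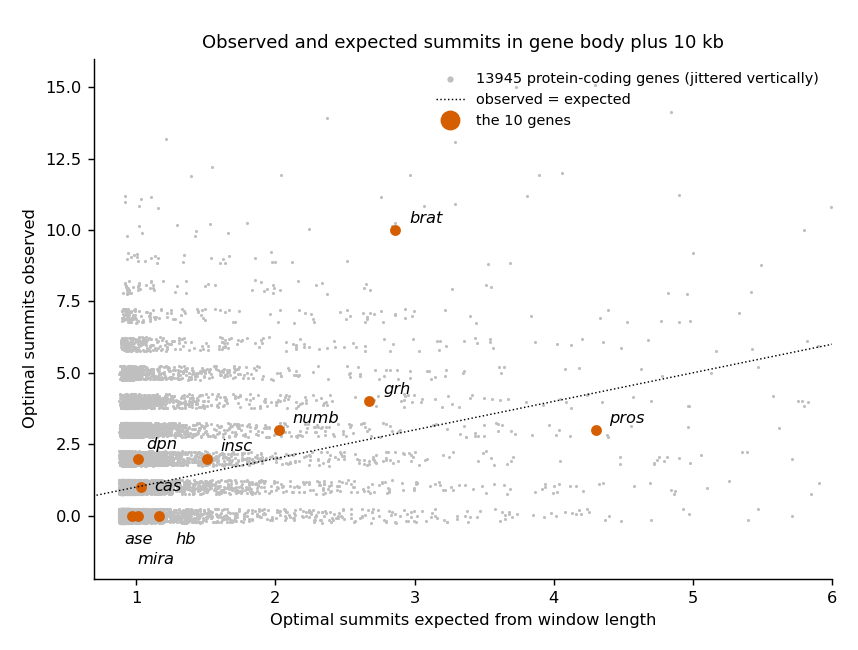
Optimal summits observed in each gene's window (vertical axis) against the number its length gives (horizontal axis) for protein-coding genes, with the 10 listed genes in orange. *brat* sits at 10 against 2.86, and 60 genes lie outside the axes.

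Prospero is a homeodomain protein that enters the daughter nucleus and switches off neuroblast genes. *pros* (FBgn0004595, 3R:11328480-11407627, plus strand, 4 TSSs) had 3 optimal summits in a 99.1 kb window, against 4.30 expected (0.698-fold, adjusted exact p = 1), none at its own TSSs. The fold was 1.01 without replicate 2, 0.378 without replicate 3 and 0.354 without replicate 4, none of which passed the test. The intronic pros-1 (3R:11338374-11338595) was 3504 bp from a *pros* TSS and 2177 bp from that of a non-coding gene. It had relative signal 1.91 in replicate 3 and 2.83 in replicate 4. In the annotated 3' UTR, pros-2 (3R:11392872-11393120) had 1.98 in replicate 3 and 3.59 in replicate 4. Replicate 2 had a peak at neither. The strongest by mean, pros-3 (3R:11409797-11410129), was at the shared promoter of *Irbp*, which encodes the Ku70 DNA repair protein, and *mgr*, beyond the gene's 3' end, with 3.22, 3.03 and 2.13 (2.79 ± 0.580, SD, n = 3). The whole list of 30000 peaks of replicate 2 held 1 summit in this window, pros-3, while replicates 3 and 4 held 13 and 16. Among 1688 genes with 10 or more such summits in replicates 3 and 4, 15 (0.889%) had 1 or none in replicate 2, a comparison made after these counts were seen. A further summit at a *pros* TSS was among the strongest peaks of replicate 3 (26 bp away, relative signal 0.638) and of replicate 4 (43 bp, 0.749), with no optimal peak there.

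Inscuteable links the polarity complex to the spindle. *insc* (FBgn0011674, 2R:20821262-20836028, minus strand, 1 TSS) had 2 optimal summits against 1.51 expected (1.33-fold, adjusted exact p = 0.983). Leaving out replicate 3 gave 2.16-fold and leaving out replicate 4 gave 2.02-fold. The count stayed at 2 in both cases, while the shorter list lowered the expected number to 0.928 and 0.990. The gene body alone gave 3.12-fold, and none of these folds passed the test. Both optimal summits lay inside *insc*, in its overlap with *sktl*, a phosphatidylinositol phosphate kinase gene. At an intron of both genes, insc-1 (2R:20830791-20831170) had 0.944, 0.912 and 1.00 (0.953 ± 0.0463, SD, n = 3), the narrowest spread of the 22 summits with 3 values. The *sktl* promoter carried insc-2, 113 bp from its TSS, at 0.606, 0.808 and 0.821. The *insc* TSS itself was 3497 bp from the nearer summit.

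Miranda carries Prospero and Brat to the basal side. *mira* (FBgn0021776, 3R:19931799-19935120, minus strand, 2 TSSs) had no optimal summit and none among the strongest peaks of any replicate. Its best peak ranked 12796 in replicate 3, with relative signal 0.343 and a q-value of 0.0779, and 10285 in replicate 4, with 0.391 and 0.189. Replicate 2 had none in its full list.

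Deadpan keeps neuroblasts self-renewing, and its window's summits were all at neighbours. *dpn* (FBgn0010109, 2R:8228971-8232330, minus strand, 1 TSS) had 2 optimal summits against 1.01 expected (1.97-fold, adjusted exact p = 0.676). Upstream, dpn-1 was at *pnut*, a septin gene, 5041 bp away, with 1.12 in replicate 3, 1.02 in replicate 4 and no peak in replicate 2. Farther upstream, dpn-2, at a non-coding gene 9252 bp away, had 1.31, 1.27 and 0.770. Asense, the other neuroblast factor, had none: *ase* (FBgn0000137, X:460747-463176, plus strand, 1 TSS) had best peaks of 0.211 in replicate 3 and 0.312 in replicate 4, with q-values of 0.485 and 0.373, and no peak in replicate 2.

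Of the temporal factors, *hb* (FBgn0001180, 3R:8690980-8697822, minus strand, 2 TSSs), which encodes the earliest of the 3, had no optimal summit, and its best peaks had relative signal 0.149, 0.287 and 0.539 in replicates 2, 3 and 4. Only the last had a q-value below 0.05 (0.0316), and all lay over 9 kb from the *hb* TSS. *cas* (FBgn0004878, 3R:5712975-5716805, minus strand, 1 TSS) had 1 summit against 1.03 expected, cas-1 (3R:5705583-5705724), in an intron of *plx* and 11139 bp from the *cas* TSS, at 1.14, 1.59 and 0.682. *grh* (FBgn0259211, 2R:17801132-17842820, plus strand, 5 TSSs), the last of the series, had 4 summits against 2.68 expected (1.50-fold, adjusted exact p = 0.786). Its strongest, the intronic grh-2 (2R:17804816-17805062), 2051 bp downstream of the nearest *grh* TSS and 3786 bp from the gene's 5' end, had 1.47, 3.22 and 2.22 (2.31 ± 0.878, SD, n = 3). Another, grh-3, was 506 bp upstream of a *grh* TSS, just outside the promoter limit, with 0.431, 0.985 and 0.366. It was among the strongest peaks of replicate 3 only, and its q-value in replicate 4 was 0.237. The other 2 lay outside the gene body. They were grh-1 (0.924, 1.44 and 1.19), in a non-coding exon within *Dhit* and the antisense *asRNA:CR45270*, and grh-4 (1.23, 0.619 and 0.759), at *olf186-M*. Among the strongest peaks with no optimal peak in this window, replicate 3 had 3, at 0.846, 0.702 and 0.632. Replicate 2 had 1 such peak, at 0.799, and replicate 4 had 1, at 0.946. The first of those in replicate 3 was 273 bp from a *grh* TSS and 64 bp from that of *asRNA:CR45270*.

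By the strongest summit in each gene's window the order was *numb* (5.37), *brat* (3.55), *pros* (2.79), *grh* (2.31), *cas* (1.14), *dpn* (1.12) and *insc* (0.953). Those of *pros*, *cas* and *dpn* lay outside the gene body, at the *Irbp* and *mgr* promoter, in a *plx* intron and at a non-coding gene. The mean ± SD ranges of *numb* and *brat* were apart, and those of the following neighbours overlapped.

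**Figure D4:**
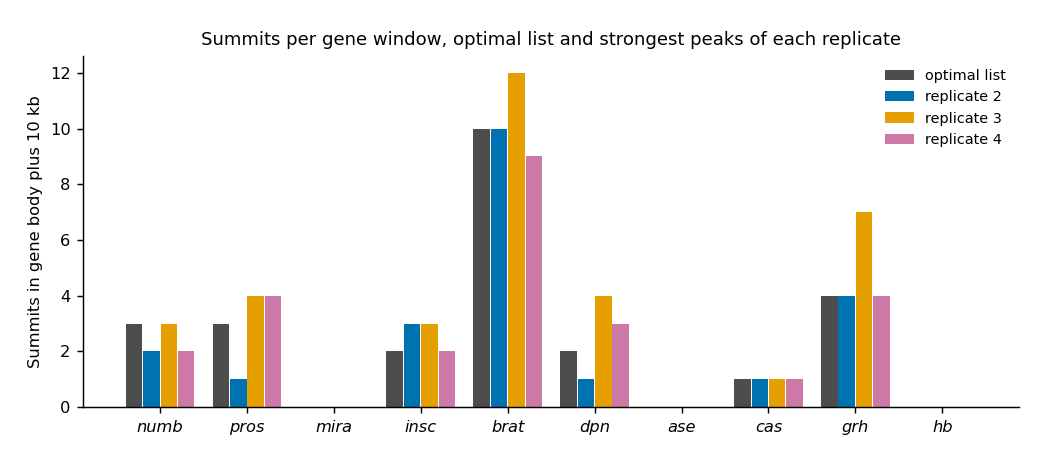
Summits in the window of each of the 10 genes in the optimal list and among the 5806 strongest peaks of replicates 2, 3 and 4. *brat* has 9 to 12, and *mira*, *ase* and *hb* have none in any list.

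The strongest peaks of each replicate gave the same picture for any summit: 7 of the 10 genes in each replicate, against 69.2%, 68.5% and 67.2% of all genes in replicates 2, 3 and 4. A summit at an own TSS was found for 2 genes in replicate 2 (*numb* and *brat*), against 29.2% of all genes. In replicate 3 it was 4 (with *pros* and *grh*), against 21.6%, and in replicate 4 it was 3 (with *pros*), against 22.5%.

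Of 53 further genes of these processes, 34 (64.2%) had a summit in the window and 17 (32.1%) at an own TSS, against 69.3% and 26.1% of all genes, and 2 were called for density, against 2.68% of all genes. Of 18 genes of the division machinery, 8 (44.4%) had one at an own TSS, against 26.1% of all genes: *par-6*, *aPKC*, *dlg1*, *stau*, *cno*, *Rap1*, *aurA* and *polo*. *par-6*, which encodes a partner of aPKC, was called with 6 against 1.03 expected (5.83-fold, adjusted exact p = 0.0303). The strongest summit in its window, 450 bp from its TSS and 122 bp from that of *CG8188*, had 2.49 ± 0.237 (SD, n = 3). That in the *mud* window, at the *Dus2* promoter, had 2.54 ± 0.311 (n = 3). Of 8 genes of the Notch and Numb route, 5 (62.5%) had one at an own TSS, against the same 26.1%. *Nak*, the endocytic kinase gene, was called with 9 against 1.34 (6.69-fold, adjusted exact p = 0.00255). The strongest anywhere in the windows of that group were 6531 bp from a *mam* TSS (3.77 ± 0.379, n = 3) and 1724 bp from a *neur* TSS (3.12 ± 0.893, n = 3). That in the *mam* window was nearer to the TSS of *CG18371*, at 3488 bp. None of 15 genes of neuroblast formation had one at an own TSS, against 26.1% of all genes, and 6 (40%) had any, against 69.3%. The strongest were 3584 bp from a *ttk* TSS (1.39 ± 0.320, n = 3) and 3140 bp from a *D* TSS (1.10 ± 0.225, n = 3). Of 9 temporal factor genes, 3 (33.3%) had any summit, *chinmo*, *dan* and *Imp*, against 69.3% of all genes. The strongest in the *chinmo* window (5.16 ± 1.22, n = 3) was 7769 bp from a *chinmo* TSS and 3674 bp from that of *lncRNA:CR45695*. That in the *dan* window, at the *lobo* promoter, had 2.20 ± 0.381 (n = 3). Of the 3 translational repressor genes, *pum*, *nanos* and *mei-P26*, all had a summit in the window. The strongest in the *pum* window (4.40 ± 2.07, n = 3) was 100384 bp from a *pum* TSS and 4275 bp from that of *Kdm2*. In the *nanos* window it (2.62 ± 0.479, n = 3) was 42 bp from the *CG42359* TSS and 5104 bp from that of *nanos*. These lists were not tested against other genes.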

How the data were processed

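NfI ChIP-seq peak lists on assembly dm6 were used. Per the deposited listings, each replicate list of 30000 peaks, background included, came from 1 alignment and a control shared by all 3 libraries. A pooled list came from all 3, and the optimal list of 5806 peaks came from these by the irreproducible discovery rate. The signal of each peak and its −log10 q-value are the authors' deposited values, and the q-value printed is computed from that −log10 value. Which aligner and caller were used is not given in the sources here. Per the labels, chromatin was sonicated to a size range of 200 to 800, with no unit.

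Summits were placed on Ensembl release 115 genes, with 4 summits on other sequences left out. Windows were the gene body plus 10 kb, promoters lay within 500 bp of a TSS, and sequence was read 100 bp to both sides of a summit. Summit density was tested per gene by 2-sided exact binomial tests with Benjamini-Hochberg adjustment (threshold 0.05, scipy 1.17.1, Python 3.11.15). The test was first run on simulated summits placed at random along the arms, as the test itself assumes. Real summits gather at promoters, so that run does not show how the test behaves on them. The libraries are labelled biological replicates, and no label says they came from separate collections, so SDs measure the spread between these libraries. All 10 genes, most of the genes nearest their summits, and the 2 strongest genes of each of the further lists were named. The genes and lists were chosen with earlier results of these data known. The list entry nos, a synonym in the annotation of both *nanos* and *Nos*, was first left out as ambiguous, and was read as *nanos* after the first counts had been seen. It added 1 gene with an own-TSS summit and no density call. The alternatives were other flanks, TSS distances, peak sets, matching, scaling, window sizes and leaving out each replicate. For counts and densities, leaving out a replicate kept only the optimal peaks matched among the strongest peaks of both others. The list was then shorter, and the numbers expected from window length fell with it.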

Additional observations from a re-analysis of the deposited data

Results flagged for a closer look

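The pooled list also held summits below the reproducibility threshold, which the comparisons did not use. There were 20 in the *brat* window, 19 at *grh*, 10 at *numb*, 8 at *insc*, 4 at *pros*, 4 at *mira*, 3 at *dpn* and 1 at *cas*, and none at *ase* or *hb*. The list includes background peaks, no control list was used here, and their part in binding was not tested. *mira* thus had summits in the pooled list and none in the optimal one.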

How the results depend on the processing

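The counts of genes with an own-promoter summit (2) or any summit (7) stayed within 1.5 times under every alternative run on the optimal list. Among the strongest peaks of replicate 3, however, 4 genes had an own-promoter summit. The 25 summits became 15 among the optimal peaks above the list's median signal and 13 in gene bodies alone. The single density call, *brat*, fell to 0 with gene bodies alone (3.01-fold), 5 kb flanks (3.71-fold) and the strongest peaks of replicate 4 (3.15-fold), and was 1 without any single replicate (4.26- to 5.04-fold). The last folds were over a shorter list, with 10, 8 and 8 summits against 1.98, 1.76 and 1.88 expected without replicates 2, 3 and 4. The adjusted p for *brat* ranged from 0.00935 to 1 over these alternatives. The cause was not tested. Over all genes the main count of 374 calls became 14 with gene bodies alone, 158 with 5 kb flanks, 1040 with 20 kb flanks, 1005 and 212 with the strongest peaks of replicates 2 and 3, and 248 without replicate 2. The median relative signal, 1.14, became 3.83 when divided by the median of the full lists, which include background. Windows with any motif numbered 19 with 100 bp to each side of the summit and 12 with 50 bp. With 50 bp those with TTGGCA fell from 6 to 2 and those with GAGAG from 11 to 5. The shares of all optimal windows are not given for 50 bp. The relative signal of brat-3 was 0.734, over replicates 2 and 3 only, when matched by summits within 150 bp. By overlap it was 1.84 over all 3 replicates, from the peak at brat-2. No called value changed direction. Density folds that passed no test did cross 1: *numb* (0.863 in the gene body, 0.987 in replicates 2 and 4), *insc* (0.842 with 20 kb flanks), *dpn* (0 with gene body or 5 kb flanks, 0.987 in replicate 2), *pros* (1.01 without replicate 2) and *cas* (1.05 with 20 kb flanks, 1.39 to 1.57 without 1 replicate). Without replicate 2 *pros* kept 3 summits, and without any single replicate *cas* kept 1, while the numbers expected fell. No paired analysis was possible because the libraries form 1 group. Read depth is unknown, and the optimal list and its signal drew on every replicate even where 1 was left out.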
